A study of Mus musculus with 2 samples.

Results

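The 9 genes described here encode enzymes of glycolysis and of the lactate step that follows it: *Gpi1*, *Aldoa*, *Tpi1*, *Gapdh*, *Pgk1*, *Pgam1*, *Eno1*, *Pkm* and *Ldha*. They were chosen by symbol, 9 of the 27998 genes in the deposited matrix, and each symbol matched 1 row with counts. In single leukemia cells they supplied 0.890% of all UMIs (unique molecular identifiers, the tags by which captured transcripts are counted) of the library labelled *Kat2a* WT and 0.781% of those of the library labelled *Kat2a* KO. *Gapdh*, *Gpi1*, *Tpi1* and *Aldoa* had the lowest ratios of KO over WT as labelled, *Eno1* and *Pgk1* were level within counting error, and no member differed by as much as 1.5-fold.

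Glycolysis splits glucose into pyruvate in the cytosol and yields ATP and NADH without oxygen. Lactate dehydrogenase turns pyruvate into lactate and returns NAD+, so that the pathway can keep running. Neutrophils rely on it strongly, and proliferating cells draw on its intermediates for nucleotides, serine and lipids.

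The study asked how loss of *Kat2a*, a histone acetyltransferase gene, alters transcript levels and their variability in *MLL-AF9* acute myeloid leukemia. Donor mice were Kat2a Flox/Flox and either Mx1-Cre -/- (WT) or Mx1-Cre +/- (KO), and both were given pIpC, an inducer of the Mx1 promoter that drives Cre. Bone marrow was taken 4 to 6 weeks afterwards, depleted of lineage-positive cells, transduced with a retrovirus carrying the fusion oncogene and grown in lethally irradiated recipients. Terminal leukemias were thawed and pooled, 5 for WT and 4 for KO, and live YFP+ cells were sorted into 1 10x Genomics 3′ library per genotype, with 6000 cells aimed at in each. The labels used here do not tell the leukemias of a pool apart. Since a genotype is 1 library, its effect could not be tested, and every 95% interval below covers counting error only.

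Kept for analysis were 3866 cells with 11669427 UMIs from the library labelled WT and 3545 cells with 7920256 UMIs from that labelled KO, all with 500 or more genes. Below, paired values are given in that order, WT label first, and ratios are KO over WT as labelled. Levels are CPM, UMIs per 1000000 UMIs. The median depth was 2588.5 and 1884 UMIs a cell. The libraries were told apart by the ending of the cell barcode, which no label ties to a genotype, and they shared 28 barcodes among 8309 cells. *Kat2a* itself had 142 and 759 UMIs, or 12.2 CPM (10.2 to 14.3) against 95.8 CPM (89.1 to 103). The count was thus higher under the KO label. A 3′ tag lies in sequence kept after excision, so this tests neither the deletion nor the labels. The study assayed *Kat2a* in such leukemias by RT-PCR inside the excised region, a measure not analysed here, and every direction below holds for the libraries as labelled. Summed markers of erythroid cells stood at 208 and 549.9 CPM with 1 of 7 and 0 of 7 markers at 0. Those of megakaryocytes stood at 20.8 and 135 CPM with none of 4 at 0, those of B cells at 54.3 and 79.0 CPM with 3 and 2 of 6 at 0, those of T and NK cells at 1.03 and 1.14 CPM with 2 and 1 of 5 at 0, and those of eosinophils, basophils and mast cells at 150.5 and 214 CPM with none of 4 at 0.

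The genes lie on 6 chromosomes of the mouse genome (GENCODE M21, build GRCm38, matched on Ensembl identifiers). *Ldha* is at chr7:46841475-46855627 on the plus strand, and *Aldoa* (chr7:126795234-126800751) and *Gpi1* (chr7:34201330-34230336) are on the minus strand of the same chromosome. *Gapdh* (chr6:125161715-125166467) and *Tpi1* (chr6:124810586-124814296) lie on the minus strand of chromosome 6. *Pkm* is at chr9:59656368-59679375, *Pgk1* at chrX:106187100-106203699, *Eno1* at chr4:150236721-150248879 and *Pgam1* at chr19:41911923-41918660, all on the plus strand.

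The RefSeq promoter table (GRCm38.p6) held 15 start sites for the 9 genes, and the 250 bases before each were searched on both strands. The core letters ACGTG or GCGTG, which hypoxia-inducible factors are known to read, were present before at least 1 start of 7 of the 9 genes and in 11 of 15 windows (73.3%), against 38.6% of all 32851 promoters of that length. The GC box GGGCGG was in 9 windows (60%, against 32.7%) and the E-box CACGTG in 1 (6.67%, against 6.02%). Neither TATAAA (12.4% of all promoters) nor CCGGAAG (6.91%) was found. Windows of the same gene can overlap, as they do for *Aldoa* and for *Eno1*, so some letters are counted in more than 1 window. The windows are thus not separate observations. Each CACGTG also counts as an ACGTG on each strand. Where a gene had several starts, the window with most core letters was taken, and the 5 windows printed are those that hold no annotated exon base of their gene. They show the contrast between *Ldha*, with 2 E-boxes and a further core, and *Gpi1*, with no core. They run 5′ to 3′ on the strand of the gene, with E-box and core letters of either strand in capitals, and lie at chr7:34230337-34230586 (minus, *Gpi1*), chr6:125165774-125166023 (minus, *Gapdh*), chrX:106186850-106187099 (plus, *Pgk1*), chr19:41911621-41911870 (plus, *Pgam1*) and chr7:46845554-46845803 (plus, *Ldha*).
Gpi1: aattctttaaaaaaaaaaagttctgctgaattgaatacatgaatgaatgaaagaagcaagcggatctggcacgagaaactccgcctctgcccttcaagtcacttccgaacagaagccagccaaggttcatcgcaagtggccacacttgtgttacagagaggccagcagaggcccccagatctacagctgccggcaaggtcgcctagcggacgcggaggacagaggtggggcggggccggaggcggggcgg
Gapdh: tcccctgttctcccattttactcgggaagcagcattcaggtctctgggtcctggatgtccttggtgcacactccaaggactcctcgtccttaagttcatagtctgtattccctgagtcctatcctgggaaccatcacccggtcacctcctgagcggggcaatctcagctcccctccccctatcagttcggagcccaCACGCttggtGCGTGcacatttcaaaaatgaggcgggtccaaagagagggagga
Pgk1: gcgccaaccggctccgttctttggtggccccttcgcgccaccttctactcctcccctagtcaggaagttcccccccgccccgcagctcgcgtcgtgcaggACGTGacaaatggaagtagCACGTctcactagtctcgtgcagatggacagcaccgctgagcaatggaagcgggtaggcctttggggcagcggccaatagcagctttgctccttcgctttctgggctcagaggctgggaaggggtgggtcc
Pgam1: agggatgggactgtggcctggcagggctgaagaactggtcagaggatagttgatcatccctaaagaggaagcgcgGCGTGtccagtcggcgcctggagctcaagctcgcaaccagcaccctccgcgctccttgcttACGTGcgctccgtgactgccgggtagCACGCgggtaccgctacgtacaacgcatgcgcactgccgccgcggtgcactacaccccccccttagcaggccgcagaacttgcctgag
Ldha: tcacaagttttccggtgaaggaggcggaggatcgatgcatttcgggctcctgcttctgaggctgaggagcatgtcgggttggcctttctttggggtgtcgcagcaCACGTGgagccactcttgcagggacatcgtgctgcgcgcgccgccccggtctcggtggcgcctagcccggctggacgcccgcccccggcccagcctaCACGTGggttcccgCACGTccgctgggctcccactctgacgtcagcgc
A match describes the letters of a window and is neither a site nor a cause. *Tpi1* was the other gene without a core in its window. The members' windows were between 50.4 and 71.2% G and C, against a median of 52.4% over all promoters.

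In the first part of the pathway, where a hexose is rearranged and split, the 3 members were all lower in the library labelled KO, with intervals that did not overlap. Counting intervals are narrow for abundant genes, and genes outside the pathway also had intervals apart, such as *Rpl7* (lower) and *Arpc2* (higher). The share of all genes with intervals apart was not counted, so this does not set the 3 members apart. *Gpi1*, which turns glucose 6-phosphate into fructose 6-phosphate, had 12302 and 6847 UMIs, or 1054 CPM (1036 to 1073) against 864 CPM (844 to 885), a log2 ratio of -0.29 (-0.33 to -0.24). *Aldoa*, the aldolase that splits fructose 1,6-bisphosphate, had 15648 and 8768 UMIs, or 1341 CPM (1320.0 to 1362) against 1107 CPM (1084 to 1130.5), a log2 ratio of -0.28 (-0.31 to -0.24). *Tpi1*, which interconverts the resulting triose phosphates, had 4588 and 2568 UMIs, or 393 CPM (382 to 405) against 324 CPM (312 to 337), a log2 ratio of -0.28 (-0.35 to -0.21). The 3 ratios were alike within their intervals although the levels were not.

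The enzymes that carry the triose to pyruvate and lactate were less uniform. *Gapdh*, which makes the NADH of the pathway, had 22518 and 11900 UMIs, or 1929.7 CPM (1905 to 1955) against 1502 CPM (1476 to 1529.7), a log2 ratio of -0.36 (-0.39 to -0.33). It was the most abundant member and had the lowest ratio. *Pgk1*, the kinase that makes the first ATP, had 1954 and 1390 UMIs, or 167 CPM (160.1 to 175) against 175 CPM (166 to 185), a log2 ratio of 0.068 (-0.032 to 0.17). It was the least abundant, and its ratio could not be told from 0 at this depth.

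*Pgam1*, the phosphoglycerate mutase, had 8432 and 5480 UMIs, or 723 CPM (707 to 738) against 692 CPM (674 to 710.5), a log2 ratio of -0.063 (-0.11 to -0.013). *Eno1*, the enolase, had 10958 and 7558 UMIs, or 939 CPM (922 to 957) against 954 CPM (933 to 976), and its log2 ratio of 0.023 (-0.019 to 0.066) was not distinguishable from 0. *Pkm*, the pyruvate kinase gene, had 18348 and 11762 UMIs, or 1572 CPM (1549.6 to 1595) against 1485 CPM (1458 to 1512), a log2 ratio of -0.082 (-0.12 to -0.049). These steps late in the pathway were thus nearer to level than *Gapdh*. *Ldha*, the lactate dehydrogenase A gene, lay between them, with 9166 and 5562 UMIs, or 785 CPM (769 to 802) against 702 CPM (684 to 721), and a log2 ratio of -0.16 (-0.21 to -0.11). Transcripts are counted at their 3′ ends and not per length, so the order of levels between genes is that of UMIs.

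**Figure D1:**
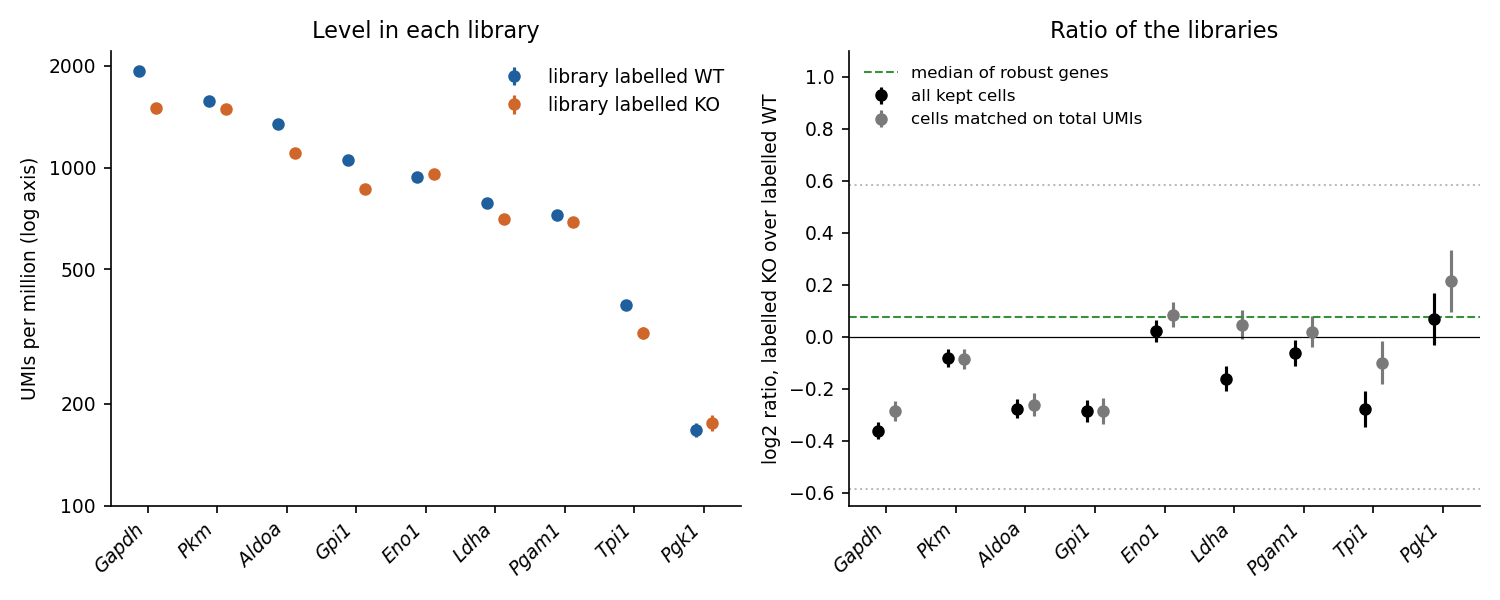
Left, CPM (log axis) of each gene in the libraries labelled WT and KO; right, log2 ratio of the libraries over all kept cells and over cells matched on total UMIs, with 1 library per genotype and bars giving 95% counting intervals. The dashed line is the median of the robust genes and the dotted lines mark 1.5-fold, which no point reaches; *Gapdh* is lowest over all kept cells at -0.36, and *Ldha* moves to 0.047 in matched cells.

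Against the whole table, 7 of the 9 members had a ratio below 0, where 39.8% of the 2737 robust genes did. A gene was called robust when at least 10% of kept cells had a UMI of it. The members' median log2 ratio was -0.16 and that of the robust genes 0.074, and 22.9% of robust genes lay below the members' median. None of the 9 was lower or higher by 1.5-fold, a size reached downwards by 3.43% and upwards by 3.54% of robust genes. Summed, the 9 genes gave 8905 CPM (8851 to 8959) against 7807 CPM (7746 to 7869), a log2 ratio of -0.19 (-0.20 to -0.18). The ratios are relative to all UMIs of a library, and less RNA of these genes per cell and more of other genes cannot be told apart.

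Depth per cell moved with both the library and the level of these genes. Kept cells were cut into 4 bins of nearly equal size by total UMIs. In the lowest, 775 to 1543 UMIs, the summed level was 7683 CPM (7496 to 7875) against 7117 CPM (6981 to 7254). In the highest, 3305 to 11944 UMIs, it was 9315 CPM (9241 to 9389.7) against 8473 CPM (8357 to 8591). The level was thus higher in deeper cells of both libraries, and the library labelled KO was lower in each bin, by log2 ratios from -0.15 to -0.11. The lowest bin held 649 and 1201 cells and the highest 1347 and 508.
Single genes split within the bins. *Gapdh*, *Aldoa*, *Gpi1* and *Pkm* were below 0 in all 4 bins, *Tpi1* in 3, *Eno1* in 2, *Ldha* and *Pgam1* in 1, and *Pgk1* in none. *Gapdh* kept between -0.30 and -0.24 over the bins, whereas *Gpi1* went from -0.0062 in the shallowest cells to -0.49 in the deepest. *Pgam1* ran the same way, from 0.25 to -0.074.

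When 2784 cells of each library were matched on total UMIs, with medians of 2128 and 2106.5 UMIs, the ratio of *Ldha* changed sign, to 0.047 (-0.011 to 0.10), as did that of *Pgam1*, to 0.020 (-0.038 to 0.078). Both intervals include 0. *Tpi1* went to -0.10 (-0.18 to -0.017). *Gapdh* was at -0.29 (-0.32 to -0.25), *Gpi1* at -0.28 (-0.33 to -0.23), *Aldoa* at -0.26 (-0.31 to -0.22) and *Pkm* at -0.085 (-0.12 to -0.046), all with intervals below 0. *Pgk1*, at 0.22 (0.10 to 0.34), and *Eno1*, at 0.085 (0.035 to 0.14), had intervals above 0. In matched cells 5 of 9 members were below 0, beside 38.3% of robust genes, and the members' median was -0.085 beside 0.12. The part of depth in the ratios over all kept cells was not tested further.

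Nearly every cell carried transcripts of the pathway. Before thinning, at least 1 UMI of the 9 genes was seen in 99.97% and 99.8% of cells. To compare cells at 1 depth, those with at least 1000 UMIs were thinned to 1000, which left 3800 and 3351 cells and left out 66 and 194. Such a cell held a median of 8 UMIs of the 9 genes in the library labelled WT (quartiles 6 and 11, 5th and 95th percentiles 3 and 16) and of 7 in that labelled KO (quartiles 5 and 10, 5th and 95th percentiles 2 and 14). The distributions overlapped over almost their whole width, and 0.105% and 0.448% of cells held none.
At this depth *Gapdh* was seen in 79.8% (78.5 to 81.1) and 71.7% (70.2 to 73.3) of cells, *Aldoa* in 68.2% (66.7 to 69.6) and 58.5% (56.9 to 60.2), *Gpi1* in 62.2% (60.7 to 63.8) and 55.8% (54.1 to 57.5) and *Tpi1* in 27.7% (26.3 to 29.2) and 23.8% (22.3 to 25.2). Their intervals did not overlap, nor did those of *Pkm*, whereas those of *Ldha*, *Eno1*, *Pgk1* and *Pgam1* did. This split was not set beside that of all robust genes. *Ldha* was seen in 44.6% (43.0 to 46.1) and 42.4% (40.7 to 44.1), *Eno1* in 57.4% (55.8 to 58.9) and 56.7% (55.0 to 58.4) and *Pgk1* in 14.5% (13.4 to 15.6) and 15.9% (14.7 to 17.2). *Pkm* was seen in 75.1% (73.7 to 76.4) and 72.0% (70.5 to 73.6) and *Pgam1* in 47.2% (45.6 to 48.8) and 44.4% (42.7 to 46.1). Before thinning the shares were 93.8% and 85.9% for *Gapdh* and 34.7% and 29.5% for *Pgk1*, the highest and the lowest by level. Every cell type uses these genes, so a share from free RNA in the droplets was not measured.

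**Figure D2:**
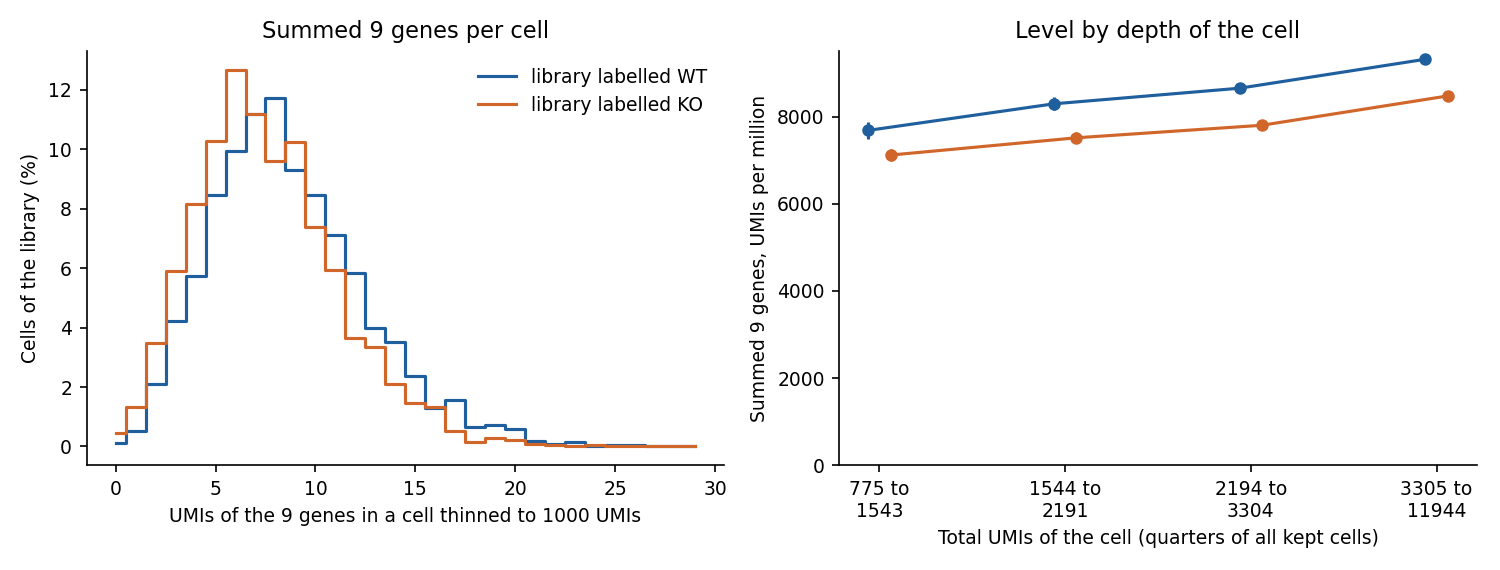
Left, the share of cells of each library (percent) by the number of UMIs of the 9 genes in a cell thinned to 1000 UMIs (3800 and 3351 cells, medians 8 and 7); right, the summed level in CPM in 4 bins of kept cells by total UMIs, with lines joining the bins of a library and bars for 95% counting intervals. The library labelled KO is lower in each bin, and both libraries are higher in deeper cells.

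Reads of a 3′ library come from the ends of transcripts, and the ends of 7 members were unique in the annotation. The last 300 bases of each gene were cut into 241 overlapping stretches of 60 bases. *Eno1* shared 216 of them (89.6%) with *Eno1b*, a near copy, and *Gapdh* shared 188 (78.0%) with 74 other annotated genes, of which 1 was in the matrix. *Eno1b* had 917 UMIs over all cells, or 4.77% of the number for *Eno1*, and the counted copy of *Gapdh* had 74, or 0.209%. The split of reads between *Eno1* and *Eno1b* is therefore uncertain. No such stretch of *Gpi1*, *Aldoa*, *Tpi1*, *Pgk1*, *Pgam1*, *Pkm* or *Ldha* occurred in another gene.

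Cells were next put into states by the share of their UMIs from 6 marker lists: primary granules, secondary granules, mature granulocytes, monocytes and macrophages, S phase and mitosis. A cell went to the list in which it ranked highest if it was among the top 20% of kept cells there, which placed 6023 of 7411 cells and left the rest unassigned. These are ranges of marker share rather than cell types. In all, 567 cells (7.65%) lay within 2 percentiles of the limit, and 2517 were in the top 20% of at least 2 lists. The 7 groups held 404 to 662 and 245 to 726 cells, and their median depth ran from 1798 to 4134 and from 1330 to 2438.5 UMIs. Cells of the mature granulocyte state had a median of 8.83% and 6.10% of their UMIs from secondary granule genes, and 0.298% and 0.306% from their own list.

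Scaled to all UMIs, the summed 9 genes were highest in the S phase state and lowest in the mitosis state of both libraries. In S phase they reached 9814 CPM (9663 to 9967) and 8619 CPM (8479.8 to 8761). In mitosis they stood at 7746 CPM (7616 to 7878) and 6729 CPM (6594 to 6867), so that the proliferating states lay at opposite ends. The monocyte and macrophage state, at 7774 CPM (7618 to 7933) and 7005 CPM (6832 to 7182), was next to lowest. Its interval overlapped that of the mitosis state in both libraries. The secondary granule state had 8484 CPM (8328 to 8642) and 7255 CPM (7074 to 7439). Between these lay the unassigned cells, at 9016 CPM (8880.3 to 9153) and 8247 CPM (8096 to 8401), the mature granulocyte state, at 9264 CPM (9100.0 to 9431) and 8232 CPM (7965 to 8505), and the primary granule state, at 9587 CPM (9468 to 9707) and 8205 CPM (8050.3 to 8362). The last 3 could not be ordered by their intervals in the library labelled KO. In that labelled WT the interval of the primary granule state overlapped that of S phase, and unassigned cells overlapped the mature granulocyte state. In that labelled KO the mature granulocyte state overlapped S phase, and the secondary granule state overlapped the monocyte and macrophage state. All 7 groups were lower in the library labelled KO, by log2 ratios from -0.23 to -0.13.

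The order of the states rests in part on the denominator. Secondary granule transcripts made up a median of 20.5% and 20.6% of UMIs in cells of the secondary granule state. Taking UMIs of marker lists and mitochondrial genes out of the total moved that state's mean log2 ratio of the summed 9 genes over unassigned cells from -0.14 to 0.15. The ratio of mitosis went from -0.26 to -0.17 and that of S phase from 0.093 to 0.14. For the monocyte and macrophage state it went from -0.22 to -0.24, so that this state and not mitosis was then lowest. The secondary granule state, at 0.15 (0.12 to 0.17), was then level with S phase, at 0.14 (0.12 to 0.17), within counting intervals. In cells with 1000 or more genes the primary granule state turned from 0.041 to -0.043.

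The single genes did not follow 1 common order over the states. *Ldha* had the widest range, with 1137 and 962 CPM in S phase and 563 and 474 CPM in mitosis, 2.02-fold and 2.03-fold apart. In cells with 1000 or more genes, however, its S phase log2 ratio over unassigned cells was 0.42 and 0.0047, against 0.51 and 0.30 in all kept cells. *Tpi1* was also highest in S phase, at 537 and 407 CPM, and lowest in the mature granulocyte state, at 283 and 213 CPM. Its S phase interval overlapped that of mitosis in the library labelled KO. Unlike *Ldha*, it was not low in mitosis, where its log2 ratio over unassigned cells was 0.21 (0.052 to 0.36) and 0.16 (-0.032 to 0.34).

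*Aldoa* was lowest in mitosis, at 907 and 746 CPM, which gave log2 ratios of -0.71 (-0.80 to -0.62) and -0.84 (-0.95 to -0.72) over unassigned cells. It was not higher in S phase, with 1373 and 1041 CPM against 1480.4 and 1331 in unassigned cells. *Gpi1* set the granulocytic states apart from the monocytic one. It had 1229 and 1037 CPM in the mature granulocyte state, its highest, and 739.5 and 600.5 CPM in the monocyte and macrophage state, its lowest, 1.66-fold and 1.73-fold apart. With marker and mitochondrial UMIs taken out of the total, *Gpi1* was highest in the secondary granule state. Its log2 ratios over unassigned cells were then 0.44 and 0.38 there, beside 0.32 and 0.26 in the mature granulocyte state. Over all UMIs *Pkm* was also highest in the mature granulocyte state, with 1936 and 1705 CPM, and lowest in mitosis, with 1255 and 1258 CPM. Its mature granulocyte log2 ratio over unassigned cells in the library labelled KO, 0.093 (-0.029 to 0.21), had an interval including 0.

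*Gapdh* ran from 2144 and 1689 CPM in S phase to 1453 and 1288 CPM in the monocyte and macrophage state. Its S phase interval overlapped that of the primary granule state in both libraries. *Pgam1* was low where *Gpi1* was not, with 535 and 492 CPM in the secondary granule state, a log2 ratio of -0.58 (-0.72 to -0.45) and -0.63 (-0.80 to -0.47) over unassigned cells. That difference was smaller, -0.31 and -0.35, when marker UMIs were taken out of the total. *Eno1* was highest in S phase, at 1064 and 1108 CPM, with an interval overlapping the mature granulocyte state in the library labelled WT. It had its lowest levels in mitosis in the library labelled WT (856 CPM) and in the monocyte and macrophage state in that labelled KO (816 CPM). Without marker and mitochondrial UMIs in the total, *Eno1* was highest in the secondary granule state. Its log2 ratios over unassigned cells were then 0.32 and 0.37 there, beside 0.31 and 0.35 in S phase. This held for *Gapdh* in the library labelled WT only (0.27 beside 0.25). *Pgk1* ran from 198 and 220.4 CPM in S phase to 141 and 149.8 CPM in the monocyte and macrophage state, and its counting intervals overlapped between neighbouring states, S phase included.

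**Figure D3:**
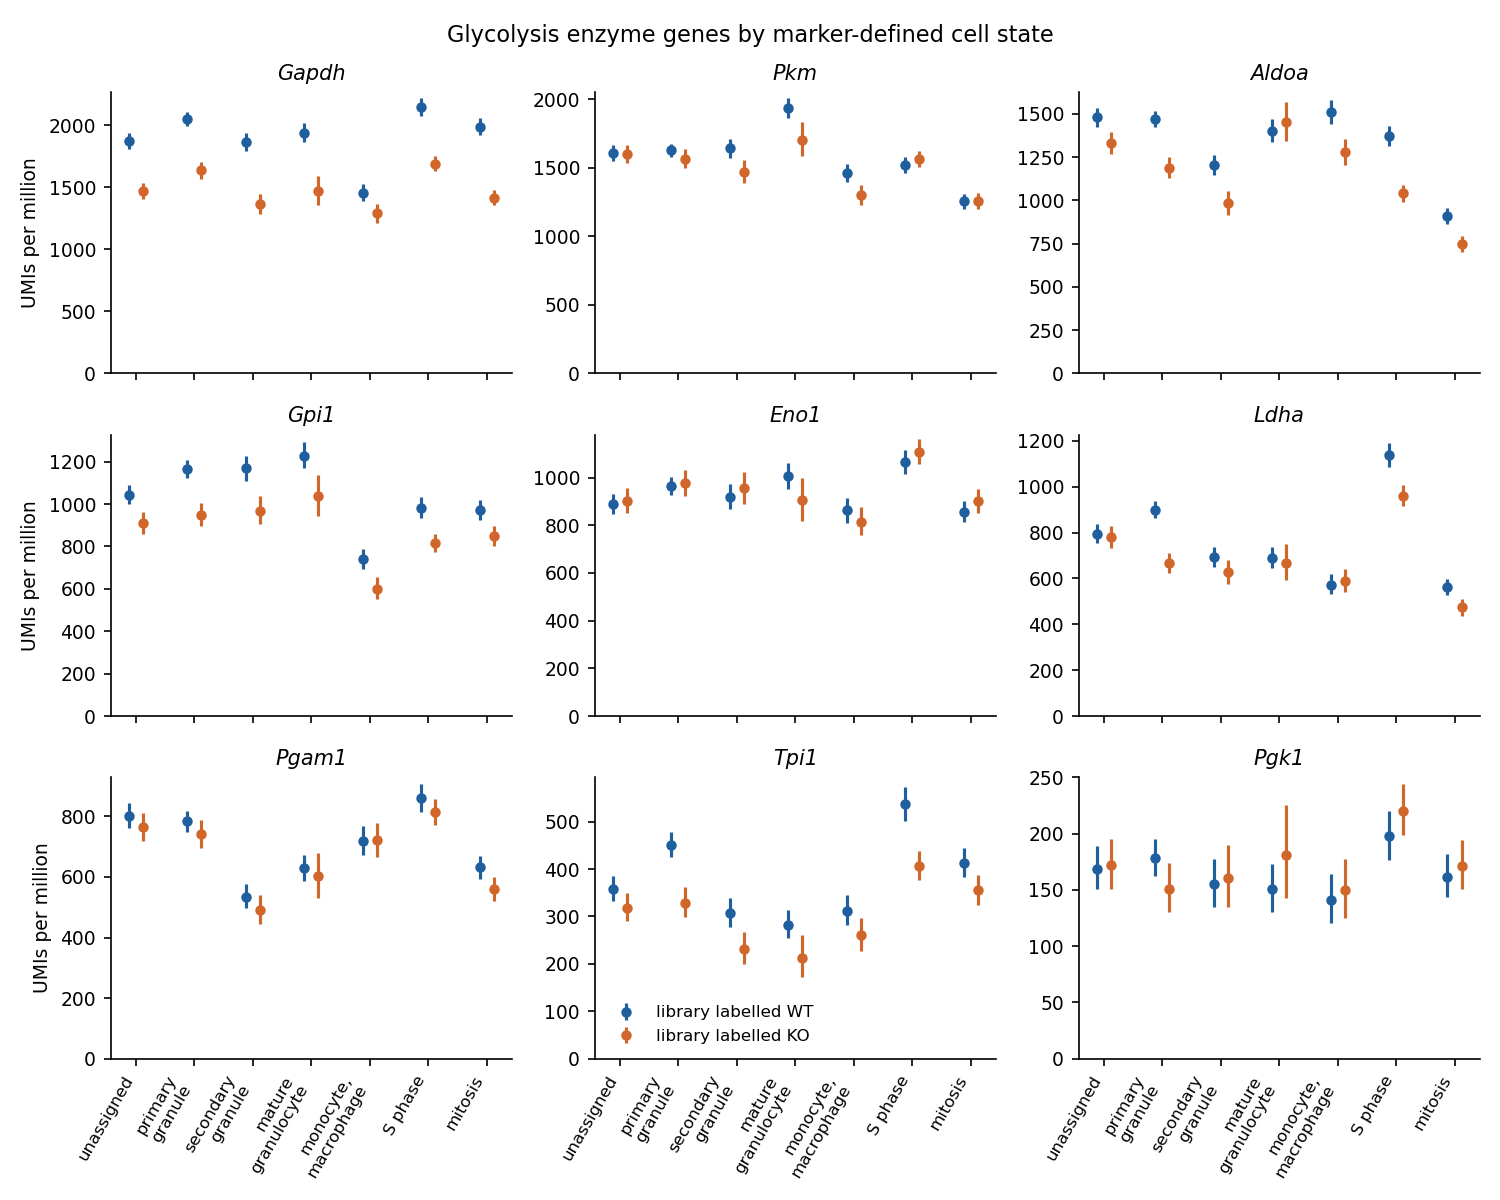
CPM of each gene in unassigned cells and in the 6 marker-defined states, for the libraries labelled WT and KO, with 95% counting intervals as bars and 1 library per genotype. All values are relative to all UMIs of a state. On that scale *Ldha*, *Tpi1*, *Gapdh*, *Eno1*, *Pgam1* and *Pgk1* have their highest value in S phase in both libraries. *Gpi1* and *Pkm* have it in the mature granulocyte state, and *Aldoa* is lowest in mitosis. For every gene but *Ldha*, the interval of the highest value overlaps that of another state in 1 or both libraries. Without marker and mitochondrial UMIs in the total, *Gpi1* and *Eno1* are highest in the secondary granule state.

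Within the states *Gapdh*, *Tpi1* and *Gpi1* were lower in the library labelled KO in 7 of 7 groups, with log2 ratios from -0.49 to -0.17, from -0.46 to -0.17 and from -0.30 to -0.19. *Ldha* (-0.43 to 0.041), *Aldoa* (-0.40 to 0.050) and *Pgam1* (-0.18 to 0.0028) were lower in 6 of 7, and *Pkm* (-0.18 to 0.042) in 5 of 7. *Eno1* was lower in 2 of 7 (-0.15 to 0.077) and *Pgk1* in 1 of 7 (-0.24 to 0.26). *Ldha* was uneven over the granulocytic and other states. Its ratio was -0.43 (-0.54 to -0.32) in the primary granule state, where levels were 899 and 667 CPM, and -0.031 (-0.15 to 0.083) in unassigned cells, where they were 796 and 779 CPM. Depth differed by state as well, with medians of 4134 and 2169 UMIs in the primary granule state and of 2491.5 and 1528 in unassigned cells, and its part in the result was not tested.

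Across the 14 points of 7 states by 2 libraries, members varied together in part. Pearson correlations on log2 of CPM plus 1 had a median of 0.40 over the 36 pairs, and 31 were above 0. The highest pair was *Ldha* with *Eno1* (0.71) and the lowest were *Gpi1* with *Pgam1* (-0.20) and *Pkm* with *Tpi1* (-0.17). *Ldha* followed the summed level of the other 8 most closely (0.78) and *Pgk1* least (0.36). The points share libraries and denominators, so the values are descriptions. After each library was centred on its own mean the median was 0.45, but 28 pairs were above 0 and the lowest was -0.33, and *Aldoa* with *Gapdh* turned from 0.23 to -0.13. From cell to cell, in counts thinned to 1000 UMIs, Spearman correlations were weak, with medians over the 36 pairs of 0.045 in 3800 cells and 0.031 in 3351 cells.

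Among 2687 other robust genes outside the marker lists, 5 were most like the summed 9 genes over the same 14 points. They were *Ndufa1*, which encodes a subunit of respiratory complex I (Pearson r 0.82), *Nap1l4*, a nucleosome assembly protein gene (0.79), *Rpe*, a pentose phosphate pathway gene (0.78), *Mcee*, which encodes methylmalonyl-CoA epimerase (0.75), and *Mrpl14*, a mitochondrial ribosomal protein gene (0.75). Their log2 ratios of KO over WT as labelled were -0.16, -0.59, -0.45, -0.63 and -0.29. The choice by likeness to the members bears on that direction.

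The glucose transporter, hexokinase and phosphofructokinase genes each had fewer UMIs than any member. The hexokinases trap glucose in the cell. Of these, *Hk3* had 143 and 138 CPM, a log2 ratio of -0.052 (-0.16 to 0.059), and *Hk1* had 24.1 and 23.4 CPM, a ratio of -0.044 (-0.32 to 0.23). *Hk2*, with 85 and 33 UMIs, had a ratio of -0.81 (-1.43 to -0.21). *Hkdc1* had no UMI in either library. Of these 4 *Hk3* had the most UMIs, and its ratio could not be told from 0.
The phosphofructokinases commit the sugar to glycolysis, at the step between those of *Gpi1* and *Aldoa*. *Pfkl* had 51.4 and 35.2 CPM, a log2 ratio of -0.55 (-0.76 to -0.34), *Pfkp* had 36.3 and 32.3 CPM, a ratio of -0.17 (-0.40 to 0.058), and *Pfkm* had 3.08 and 3.41 CPM, a ratio of 0.14 (-0.63 to 0.90). The glucose transporter genes *Slc2a1* (15.3 and 10.4 CPM, log2 ratio -0.57, interval -0.96 to -0.18) and *Slc2a3* (40.7 and 28.3 CPM, log2 ratio -0.53, interval -0.76 to -0.29) were lower in the library labelled KO. In matched cells *Slc2a1* was at -0.82 (-1.29 to -0.37), *Slc2a3* at -0.996 (-1.26 to -0.74) and *Hk2* at -0.89 (-1.61 to -0.20). There *Pfkl* was at -0.35 (-0.59 to -0.11) and *Pfkp* at -0.44 (-0.71 to -0.17), while the intervals of *Hk1*, *Hk3* and *Pfkm* included 0. Of these genes *Hk3* alone was in the robust set.

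At the exit of the pathway, *Slc16a3*, which encodes the lactate exporter MCT4, had the lowest ratio among robust genes of the listed pathways. It had 1150 and 391 UMIs, or 98.5 and 49.4 CPM, a log2 ratio of -0.997 (-1.17 to -0.83), and of -1.10 (-1.28 to -0.91) in matched cells. Its partner *Bsg*, a chaperone of monocarboxylate transporters, was higher in the library labelled KO, with 305 and 378 CPM and a log2 ratio of 0.31 (0.24 to 0.38). *Slc16a1*, which encodes MCT1, had 45 and 48 UMIs, a log2 ratio of 0.65 (0.035 to 1.27). The MCT4 and MCT1 genes thus pointed in opposite directions. *Slc16a3* and *Bnip3*, a mitophagy gene, were the robust genes of all lists past 1.5-fold, with *Bnip3* at 68.6 and 44.4 CPM and a log2 ratio of -0.63 (-0.81 to -0.44).

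Of the 12 robust TCA cycle genes 1 had a ratio below 0, where 39.8% of all robust genes did, and the other 11 were above 0, with a median of 0.19 beside 0.074 for all robust genes. *Sdhb*, a succinate dehydrogenase subunit gene, had 248 and 316 CPM and a log2 ratio of 0.35 (0.27 to 0.43), *Sucla2*, of succinyl-CoA ligase, had 0.30 (0.17 to 0.42), and *Idh3b*, of isocitrate dehydrogenase, had 0.29 (0.11 to 0.47). Of 6 robust genes for pyruvate entry 2 were below 0, a share near that of all robust genes, and the median was 0.23. *Pdk3*, a kinase that inhibits pyruvate dehydrogenase, had 0.50 (0.32 to 0.68), *Mpc1*, of the mitochondrial pyruvate carrier, had 0.42 (0.36 to 0.48), and *Pdhb*, of pyruvate dehydrogenase, had 0.23 (0.090 to 0.37). None of them reached 1.5-fold.

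The pentose phosphate pathway leaves glycolysis at glucose 6-phosphate and yields NADPH. *Pgd* (279 and 187 CPM, log2 ratio -0.58, interval -0.67 to -0.49) and *G6pdx* (69.3 and 47.9 CPM, log2 ratio -0.53, interval -0.71 to -0.36), the dehydrogenases that make NADPH, were lower in the library labelled KO, as was *Rpe*, the ribulose phosphate epimerase (64.4 and 47.0 CPM, log2 ratio -0.45, interval -0.64 to -0.27). Of its 7 robust genes 5 were below 0, beside 39.8% of all robust genes, with a median of -0.27, and none reached 1.5-fold. *Pgls*, 1 of the 5, had an interval that includes 0, at -0.013 (-0.082 to 0.055), and was at 0.12 (0.043 to 0.21) in matched cells. *Taldo1*, the transaldolase gene, was the most abundant of the list and went the other way, with 1145 and 1359 CPM and a log2 ratio of 0.25 (0.21 to 0.28). Summed over the list the log2 ratio was -0.012 (-0.038 to 0.013). *Pgls* and *Taldo1* were named after their values were seen. The other lists had few robust genes. *Fbp1*, which encodes a fructose bisphosphatase, had a log2 ratio of 0.089 (-0.022 to 0.20) and *Psph*, of serine synthesis, 0.090 (-0.083 to 0.26). In matched cells they were at 0.24 (0.11 to 0.37) and 0.36 (0.15 to 0.57). Summed over the 5 listed genes of the serine branch the log2 ratio was 0.25 (0.15 to 0.35). Among regulators *Max*, the partner of Myc, had 0.39 (0.26 to 0.51) and *Egln2*, a prolyl hydroxylase gene, 0.064 (-0.11 to 0.24). *Hif1a*, named after its value was seen and outside the robust set, had 28.7 and 18.8 CPM and a log2 ratio of -0.61 (-0.90 to -0.33).

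Paralogs of the members were scarce. Of 17 in the matrix, 11 had a UMI, and together they gave 157 and 192 CPM against 8905 and 7807 CPM for the members. *Pklr*, *Pgk2* and *Eno2*, forms known from other tissues, had none. *Ldhb*, the other main lactate dehydrogenase subunit gene, had 65.5 and 74.5 CPM, a log2 ratio of 0.19 (0.029 to 0.34), and *Eno1b* had 37.9 and 56.4 CPM, a log2 ratio of 0.58 (0.38 to 0.77).

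**Figure D4:**
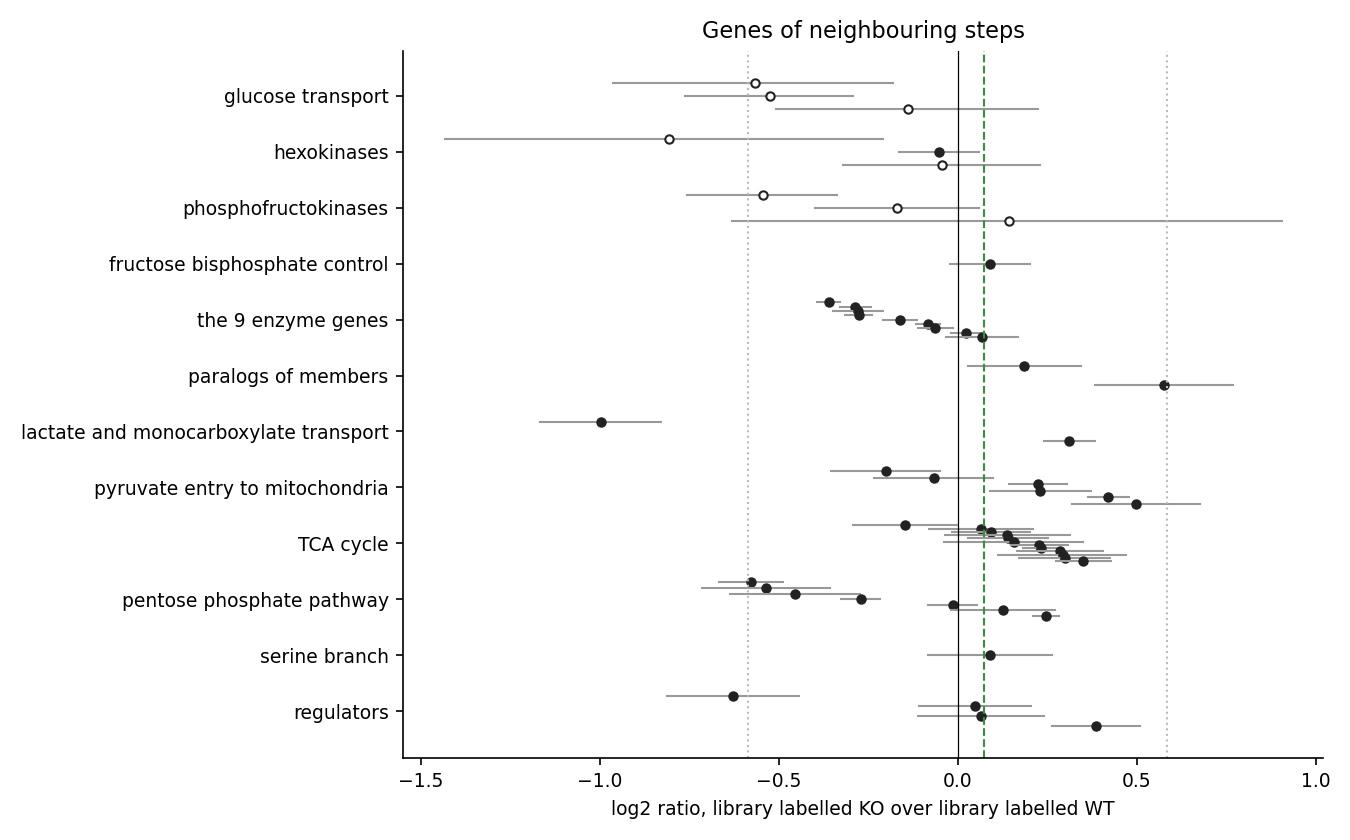
Log2 ratio of the library labelled KO over that labelled WT (1 library each) for genes of each pathway list, with 95% counting intervals as grey bars; filled points are robust genes and open points are other glucose transporter, hexokinase and phosphofructokinase genes with at least 30 UMIs. The green dashed line is the median of robust genes (0.074) and the dotted lines mark 1.5-fold, which *Slc16a3* passes at -0.997, while 11 of 12 robust TCA cycle genes lie above 0.

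The study also asked about variability between cells. It was measured here as CV, the ratio of SD to mean after each cell was scaled to 10000 UMIs. At the cells' own depth the CV was higher in the library labelled KO for all 9 members, with a median log2 ratio of 0.29, beside 0.21 for the robust genes, of which 87.7% were above 0. A CV rises as depth falls, and depth was lower in that library. After thinning to 1000 UMIs the members' median was 0.11 and that of the robust genes 0.023, with 8 of 9 members and 55.6% of robust genes above 0. In cells matched on UMIs the members' median was 0.049.

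*Aldoa* had the highest ratio at equal depth (thinned CVs 1.01 and 1.20, log2 ratio 0.25), followed by *Gapdh* (0.848 and 0.961, log2 ratio 0.18), *Tpi1* (1.83 and 2.07, log2 ratio 0.18) and *Gpi1* (1.07 and 1.18, log2 ratio 0.14). These are also the 4 members with the lowest ratio of levels, and the part of the level in their CV was not tested. The log2 ratios of *Pgam1* (0.11), *Pkm* (0.083), *Ldha* (0.036) and *Eno1* (0.00030) followed, and *Pgk1* was below 0 (2.57 and 2.40, log2 ratio -0.095). The variance over the mean of thinned counts, which is 1 for counting error alone, ran from 1.06 (*Pgk1*) to 1.38 (*Aldoa*) in the library labelled WT and from 1.01 (*Pgk1*) to 1.56 (*Aldoa*) in that labelled KO, beside medians of 1.16 and 1.27 over the robust genes. *Pgk1* thus varied little more than counting error, and no burst value is given for it.

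By moments, burst frequency (the inverse of the squared CV once counting variance is removed) was lower in the library labelled KO for *Tpi1* (2.05 and 1.09), *Aldoa* (3.54 and 1.92), *Pgam1* (3.14 and 1.82), *Gapdh* (5.88 and 4.37), *Gpi1* (4.35 and 3.39), *Pkm* (5.43 and 4.32) and *Ldha* (1.98 and 1.85), and higher for *Eno1* (4.67 and 5.55). With *Pgk1* counted, 2 of 9 members were higher in that library, as were 25.5% of 2720 robust genes with a value. The median log2 ratio of burst frequency was -0.36 over the 9 members and -0.58 over those robust genes. These frequencies have no unit of time and are on another scale than a fitted promoter model.

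**Figure D5:**
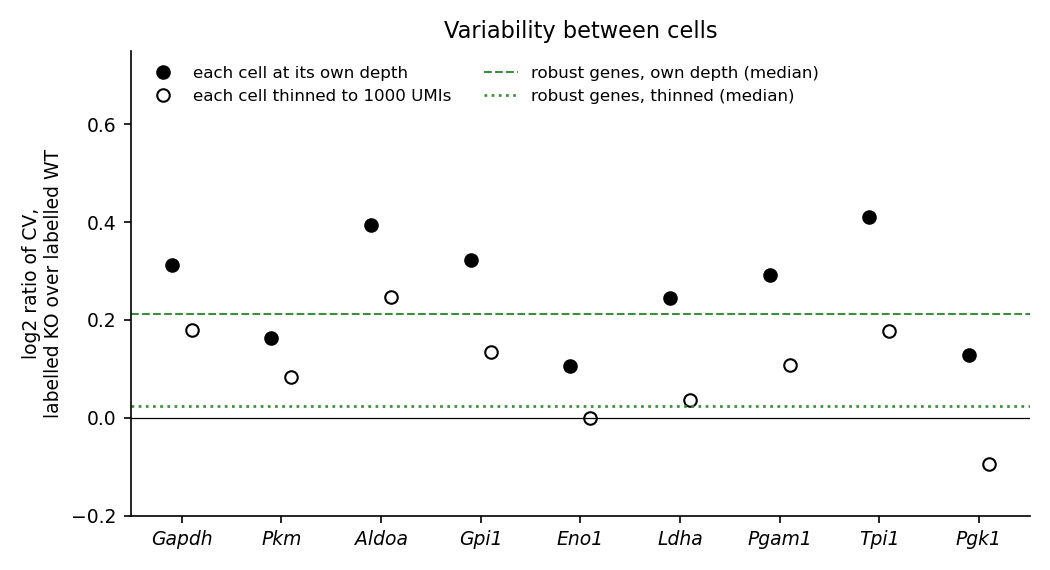
Log2 ratio of the CV between cells, library labelled KO over that labelled WT (1 library each, so no error bar), for each gene at the cells' own depth (filled points) and after thinning to 1000 UMIs (open points). Green lines give the medians of the robust genes, 0.21 at own depth and 0.023 after thinning; every filled point is above 0, and after thinning *Aldoa* is highest at 0.25 and *Pgk1* lowest at -0.095.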

How the data were processed

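Single-cell RNA-seq was measured in 2 pooled libraries of mouse MLL-AF9 leukemia cells. The authors deposited 1 matrix of raw UMI counts, not normalized, with 27998 genes and 8309 cells, made with Cell Ranger 1.3.1 on mm10 per the submitters' processing notes. Barcodes ending in 1 were taken as the library labelled KO and those ending in 2 as the library labelled WT, after the study's code, since the labels do not tie endings to genotypes.

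Cells with 500 or more genes were kept, as in the study. No doublet caller was run, the sort took singlets, and leaving out the 5% of cells with most UMIs was an alternative. Sums carry exact Poisson intervals, shares exact Clopper-Pearson intervals and ratios exact conditional counting intervals, all at 95%. Cells were thinned without replacement (seed 7) or matched in bins of 0.1 on log2 total UMIs. Python 3.11.15, numpy 2.4.6, scipy 1.17.1 and pandas 2.3.3 were used, and the steps were tested on simulated data. Named were all 9 members, every hexokinase and phosphofructokinase, *Slc2a1*, *Slc2a3*, *Slc16a1*, *Slc16a3*, and of each other list up to 3 robust genes with the largest absolute log2 ratio. Some listed genes are not reported here. The 5 genes most like the members were ranked by Pearson r. The members and lists were chosen with earlier results of these data known.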

Additional observations from a re-analysis of the deposited data

Results flagged for a closer look

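*Ldha* differed between the libraries in its relation to 1 cell state. In the library labelled WT it was higher in the primary granule state than in unassigned cells, by 0.18 on the log2 scale (0.081 to 0.27), and in that labelled KO its log2 ratio was -0.22 (-0.35 to -0.093). The counting intervals lie on opposite sides of 0, but the difference between the libraries was not tested, since each genotype has 1 library. With marker UMIs taken out of the total the ratios were 0.22 and -0.18. In cells with 1000 or more genes they were -0.022 and -0.71, so that the opposite signs did not hold in those cells.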

How the results depend on the processing

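No paired analysis was possible because each genotype had 1 library, and for the same reason no replicate could be left out. The log2 ratio of the summed 9 genes, -0.19, stayed below 0 in all 11 alternatives. It went to -0.14 among cells that had 1000 genes or more, to -0.13 in cells matched on total UMIs, to -0.26 under the median of robust-gene ratios, to -0.21 without the 5% of cells with most UMIs and to -0.15 without *Gapdh*. The other 6, of which 2 were chosen after seeing the data (without cells with 3 or more UMIs of other-cell markers, and without shared barcodes), stayed within its interval. Matching on UMIs turned *Ldha* to 0.047 and *Pgam1* to 0.020, and gave intervals above 0 for *Eno1* and *Pgk1* and -0.10 (-0.18 to -0.017) for *Tpi1*. At 1000 genes or more *Ldha* was at -0.030 (-0.089 to 0.030), *Pkm* at -0.016 (-0.061 to 0.028), *Pgam1* at -0.039 (-0.10 to 0.024) and *Eno1* at 0.13 (0.075 to 0.18). In thinned cells the intervals of *Ldha*, -0.066 (-0.15 to 0.017), and *Pgam1*, -0.049 (-0.13 to 0.032), included 0. Without cells holding other-cell markers *Ldha* was at -0.25 (-0.31 to -0.20). Under the median of robust-gene ratios *Eno1* was at -0.051 (-0.094 to -0.0087), *Pkm* at -0.16 (-0.19 to -0.12), *Pgam1* at -0.14 (-0.19 to -0.088) and *Pgk1* at -0.0065 (-0.11 to 0.093). Matching also turned the median of 4 robust regulators from 0.056 to -0.047, an alternative added after seeing the data.

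For states over unassigned cells, taking marker and mitochondrial UMIs out of the total gave 0.081 for primary granule, 0.15 for secondary granule (reversed from -0.14), 0.10 for mature granulocyte, 0.14 for S phase and -0.17 for mitosis. Keeping only cells of at least 1000 genes gave -0.043 for primary granule (reversed from 0.041), -0.16 for monocyte and macrophage, 0.062 for S phase and -0.29 for mitosis. States that were not exclusive gave 0.055 for S phase and -0.041 for mature granulocyte, which was -0.043 with the top 10% of a list and -0.014 in thinned cells, against 0.018. Apart from the change of denominator, the cause of these shifts was not tested.

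The median log2 ratio of CV, 0.29, went to 0.11 and 0.13 after thinning to 1000 and 1500 UMIs, to 0.049 in matched cells and to 0.16 at 1000 genes or more. The CV ratio of *Pgk1* turned to -0.095, -0.083 and -0.15 under the first 3 of these, and that of *Eno1* to -0.040, -0.089 and -0.048 under the last 3. The background median of 0.074 was 0.046 with genes seen in at least 5% of cells and -0.016 with every gene that had a UMI in both libraries.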

Other observations

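The 203 and 695 cells with under 500 genes, which entered no comparison, held 7212 CPM (6864 to 7573) against 6704 CPM (6508 to 6903) of the 9 genes, a log2 ratio of -0.11 (-0.19 to -0.022). *Gapdh* was again lower in the library labelled KO, with 1537 CPM (1379 to 1709) against 1082 CPM (1005 to 1164) and a log2 ratio of -0.51 (-0.69 to -0.32). *Gpi1*, at -0.29 in kept cells, was at -0.0057 (-0.22 to 0.22) here. *Ldha* was at 0.26 (-0.055 to 0.59) and *Tpi1* at 0.13 (-0.44 to 0.74), neither distinguishable from 0 at this depth.

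Outside the robust set, *Vegfa*, an angiogenic growth factor gene (101 and 34 UMIs, log2 ratio -1.01, interval -1.62 to -0.44), and *Ankrd37* (223 and 79 UMIs, log2 ratio -0.94, interval -1.33 to -0.56) were lower in the library labelled KO. *Egln3*, a prolyl hydroxylase gene with 169 and 106 UMIs, had a log2 ratio of -0.11 (-0.48 to 0.24). *Aldoc*, a paralog of *Aldoa*, had 121 and 39 UMIs and a log2 ratio of -1.07 (-1.63 to -0.54). These 4 were named after their values were seen.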
